A study of Mus musculus with 16 samples.

Results

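The transcripts of 10 enzymes of glycogen breakdown and glycolysis were followed in C2C12 cells, among them 3 pairs in which a skeletal muscle form stands beside a form used by other tissues. The members were fixed by name: Pygm, Pfkm, Pfkl, Gapdh, Pgam1, Pgam2, Eno1, Eno3, Pkm and Ldha, the 10 rows bearing these symbols among 31053 genes in the table. All 10 were among the 10767 genes that passed the filter on low values (10 or more normalized counts in 4 or more of the 16 samples). C2C12 is a mouse myoblast line that exits the cell cycle and fuses into myotubes. The study asked how the ER-phagy receptor FAM134B acts during myogenesis, and sequenced wild-type (WT) and Fam134b KO cells as undifferentiated myoblasts and as differentiated myotubes, with 4 samples in each of the 4 groups, labelled as biological replicates. The methods state that experiments were done in independent biological replicates, without describing how these 4 libraries of a group were separated, so p-values measure the spread between these samples. All cells were kept in DMEM with 10% FBS and differentiated spontaneously at confluency, and the Fam134b KO cells had received Cas9 and guide RNAs against Fam134b by lentivirus followed by antibiotic selection. The methods do not say whether the KO line is 1 clone, and no control virus is described for the WT cells in the sources used here, so the gene loss, the infection and the selection cannot be told apart here.

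Glycolysis splits glucose into pyruvate through a fixed chain of cytosolic enzymes and yields ATP without oxygen, and in working muscle the glucose units come largely from stored glycogen. Several steps are run by enzymes encoded by more than a single gene, and during myogenesis muscle replaces or supplements the general form with a muscle form: β-enolase (Eno3) beside α-enolase (Eno1), the muscle phosphoglycerate mutase (Pgam2) beside the brain or general form (Pgam1), and muscle phosphofructokinase (Pfkm) beside the liver type (Pfkl). Muscle glycogen phosphorylase (Pygm) releases glucose 1-phosphate from glycogen and is the enzyme missing in McArdle disease.

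The libraries held between 1484750 and 3287461 reads assigned to genes. The fewest were in KO myotube replicates 2 and 4, and the KO myotube samples lay farther from their group mean (root mean square 0.448 to 0.691 on the log2 scale) than those of the other groups (0.26 to 0.44). Fam134b itself averaged 207 ± 42.0 normalized counts in WT myoblasts, 232 ± 61.6 in WT myotubes, 27.5 ± 5.49 in KO myoblasts and 41.8 ± 14.0 in KO myotubes (SD, n = 4 each), so it was reduced but not at 0 in the KO libraries. The counts do not show whether the remaining transcripts carried an edit. Of 11 skeletal muscle marker genes, 10 were found under their symbols, with a summed level between 1650 and 2490 (WT myoblasts), 20230 and 27850 (WT myotubes), 238 and 308 (KO myoblasts) and 9386 and 12860 (KO myotubes). KO myoblasts had 3 or more reads in a sample for only 5 of the 10, and Myog, the transcription factor that starts terminal differentiation, was at 0 in all 4. The 5 proliferation markers summed to between 3532 and 4245, 1901 and 3100, 2814 and 4756, and 836 and 1406 in the same order of groups. The 6 fibroblast markers summed to between 2679 and 5512, 12370 and 22000, 3719 and 13970, and 17040 and 35810, again in that order, most of it from the collagen genes Col1a1 and Col3a1, while Tcf21 was at 0 in all libraries and Dcn averaged 1.16, 53.1, 2.36 and 144. The sums of both myotube groups overlapped, as did those of KO myoblasts with both WT groups. Their part in the results below was not tested. Immune markers summed to at most 11.2, with Ptprc, Adgre1 and Itgam at 0, and adipocyte and endothelial markers were at or near 0 in every library. In bulk RNA, fewer differentiated cells and less transcript per cell cannot be told apart, and this holds for the muscle enzymes below, Eno3 included. Eno3 averaged 1579 normalized counts in WT myoblasts and 1591 in WT myotubes, and the part of cell composition in its levels was not tested.

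Values are given as normalized counts, recovered from the deposited log2(normalized count + 1), and fold changes are on that log2 scale. No length correction was applied, so levels are compared between samples for a gene and not between genes. Adjusted p-values are from limma with Benjamini-Hochberg adjustment over all 10767 genes tested.

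**Figure D1:**
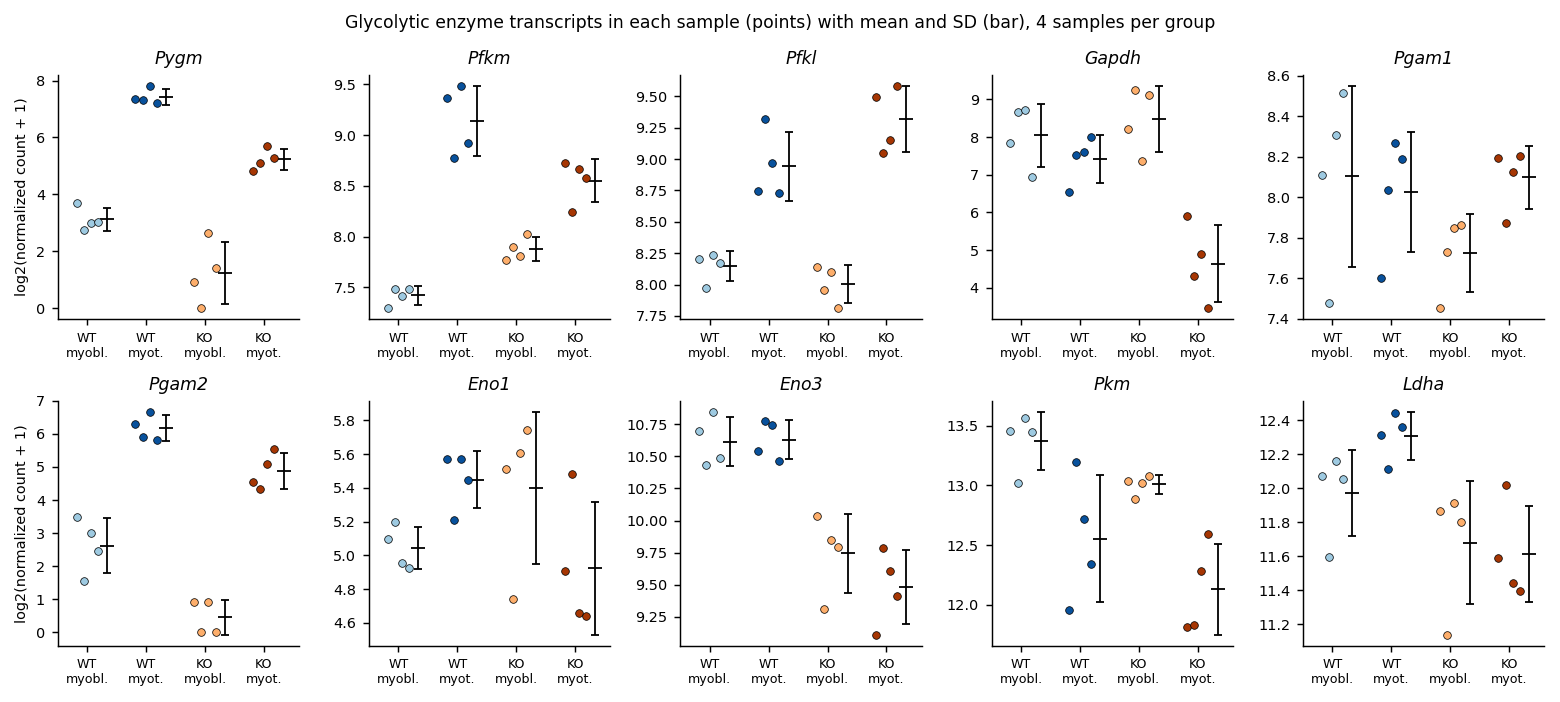
Each panel plots log2(normalized count + 1) of a member in the 16 samples, with points for samples and a bar for the group mean and SD (n = 4); the vertical scales differ between panels. Pygm and Pgam2 are high in the myotubes of both genotypes, Eno3 is low in both KO groups, and Gapdh is low in KO myotubes.

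Pygm and Pgam2 had the largest increases among the members on differentiation. Their promoters are shown here because these genes rose together, and the Pgam1 and Eno3 promoters because those genes did not follow. Sequences are from RefSeq on GRCm38.p6, 250 bases before to 50 after the annotated start, read 5′ to 3′ on the gene's strand. All 10 members matched an entry in that promoter table. Capitals mark the E-box CAGCTG, the MCAT motif GGAATG and the MEF2 consensus, searched on both strands. No 2 of these matches overlapped in the sequences printed.
Pgam2, chr11:5803747-5804046, minus strand: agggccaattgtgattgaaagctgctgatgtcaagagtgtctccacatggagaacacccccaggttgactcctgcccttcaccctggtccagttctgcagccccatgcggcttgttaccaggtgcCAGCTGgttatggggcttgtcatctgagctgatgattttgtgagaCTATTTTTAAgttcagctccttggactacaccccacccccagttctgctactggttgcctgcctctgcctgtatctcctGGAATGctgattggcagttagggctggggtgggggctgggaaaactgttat
Pygm, chr19:6384158-6384457, plus strand: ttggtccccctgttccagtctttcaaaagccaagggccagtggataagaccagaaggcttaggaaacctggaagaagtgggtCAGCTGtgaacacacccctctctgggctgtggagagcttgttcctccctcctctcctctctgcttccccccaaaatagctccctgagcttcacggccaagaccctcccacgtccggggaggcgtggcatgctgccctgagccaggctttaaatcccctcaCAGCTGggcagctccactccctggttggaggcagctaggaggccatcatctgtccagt
Eno3, chr11:70656926-70657225, plus strand: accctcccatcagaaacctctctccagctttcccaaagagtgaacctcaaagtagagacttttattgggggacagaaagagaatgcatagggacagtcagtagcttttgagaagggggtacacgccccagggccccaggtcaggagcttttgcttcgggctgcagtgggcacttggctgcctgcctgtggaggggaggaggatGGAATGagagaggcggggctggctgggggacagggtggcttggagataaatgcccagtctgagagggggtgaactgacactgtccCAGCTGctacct
Pgam1, chr19:41911621-41911920, plus strand: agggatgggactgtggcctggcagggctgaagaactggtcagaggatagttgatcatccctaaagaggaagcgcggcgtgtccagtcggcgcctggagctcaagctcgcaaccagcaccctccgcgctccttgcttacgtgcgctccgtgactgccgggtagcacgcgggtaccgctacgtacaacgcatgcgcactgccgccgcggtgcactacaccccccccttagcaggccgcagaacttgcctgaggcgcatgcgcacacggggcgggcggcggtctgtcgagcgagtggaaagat
The Pgam2 window held all 3 motifs, with the E-box beginning 125 bases, the MEF2 match 80 bases and GGAATG 1 base before the RefSeq start. In the GENCODE positions given below, Pgam2 starts at 5803733 on the minus strand, outside this window, and the motifs lie farther from that start. The Pygm window held CAGCTG at 168 and 8 bases before the start, and the Eno3 window held GGAATG at 47 bases before and CAGCTG at 39 bases after it. The Pgam1 window held none of the 3 spellings. Among 32851 promoter windows of the same length, 16.3% held CAGCTG, 14.7% GGAATG and 3.19% the MEF2 consensus. Of the members not printed, Pfkm (4 annotated starts) and Pfkl, which rose on differentiation, held none of the 3 spellings. Gapdh and Ldha held none either. The GENCODE gene starts of Pgam1, Pfkl, Gapdh and Ldha also lay outside their windows, so these absences hold for the RefSeq starts only. Pkm, which fell, held CAGCTG 38 bases before 1 of its 2 starts. Eno1 held GGAATG 188 or 215 bases before a start. These are matches of letters only, and their part in the changes was not tested.

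Pygm, on chromosome 19 (6384399 to 6398459, plus strand, GRCm38), rose on differentiation in both genotypes and was lower in the KO at both stages. WT myoblasts had 12, 5.79, 7.01 and 7.13 normalized counts and WT myotubes had 161, 157, 225 and 147. KO myoblasts had 0.875, 0, 5.21 and 1.67, which is 9 reads in all, and KO myotubes had 27.1, 33.6, 51.3 and 38. The 4 groups followed the order KO myoblasts, WT myoblasts, KO myotubes, WT myotubes, and no 2 of them overlapped. The nearest myoblast samples, KO replicate 3 and WT replicate 2, held 6 reads each, so only the scaling sets them apart. Of all genes tested, 26.8% did not overlap between the myoblasts of the genotypes and 19.4% between the myotubes. On differentiation these shares were 28.0% in WT and 27.4% in KO cells. The log2 fold change on differentiation was 4.30 (SE 0.42, adjusted p = 1.75e-07) in WT cells and 3.99 (SE 0.42, adjusted p = 2.35e-07) in KO cells. The log2 difference of KO from WT was -1.88 (SE 0.42, adjusted p = 0.0027) in myoblasts and -2.19 (SE 0.42, adjusted p = 0.000661) in myotubes. The change on differentiation in KO cells minus that in WT cells, the interaction, was -0.31 (SE 0.59, adjusted p = 0.836). KO myotubes reached 21.7% of the mean WT myotube level. These values moved with the pseudocount: at 5 in place of 1 the rise in KO cells was 2.64 (adjusted p = 6.32e-08), the difference between myoblasts -0.94 (adjusted p = 0.015) and the interaction -1.14 (adjusted p = 0.0912), and quantile normalization gave -0.94 for the interaction (adjusted p = 0.328) and -1.23 between myoblasts (adjusted p = 0.0179).

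Pgam2, the muscle phosphoglycerate mutase, moved in the same directions. It lies on chromosome 11 (5801640 to 5803733, minus strand). WT myoblasts had 10.2, 1.93, 7.01 and 4.46 normalized counts and WT myotubes 77.7, 58.5, 100.4 and 55.5. KO myoblasts had 0.875, 0, 0.868 and 0, a total of 2 reads over 4 libraries, and KO myotubes 22.3, 19.0, 33.3 and 46.0. The groups fell in the same order as for Pygm, without overlap, though between the myoblast groups the gap was 1 read (KO replicates 1 and 3) against 2 (WT replicate 2). Differentiation raised Pgam2 by 3.55 (SE 0.43, adjusted p = 4.24e-06) in WT cells and by 4.43 (SE 0.43, adjusted p = 9.2e-08) in KO cells. With 2 reads in the KO myoblasts the fitted KO value depends on the pseudocount of 1, and the ratio of pooled read rates was 67.7, with an exact 95% binomial interval of 18.2 to 567 that covers counting error only. The KO was lower by a log2 difference of -2.17 in myoblasts (SE 0.43, adjusted p = 0.00103), a read rate ratio of 13.8 in favour of WT with an interval of 3.45 to 121. Quantile normalization ended that call (log2 fold change -1.19, adjusted p = 0.0676). In myotubes the difference was -1.29 (SE 0.43, adjusted p = 0.035). This call was lost without any 1 of WT myotube replicates 1, 3 or 4 or KO myotube replicates 1 or 2 (adjusted p = 0.052 to 0.121). It was also lost without KO myotube replicates 2 and 4 together (adjusted p = 0.0583) or without the filter on low values (adjusted p = 0.0655). With limma's sample weights, which count distant samples less, the adjusted p was 0.0814.

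Pgam1, the general mutase, had no change that passed the test in the fit with equal sample weights. Its means were 284 ± 79.8 normalized counts in WT myoblasts, 264 ± 50.5 in WT myotubes, 212 ± 26.8 in KO myoblasts and 274 ± 28.2 in KO myotubes (SD, n = 4). Among the 4 pairs of groups the largest difference was -0.38 between KO and WT myoblasts (SE 0.20, adjusted p = 0.233), which became -0.59 without WT myoblast replicate 2 (adjusted p = 0.0401) and -0.51 with limma's sample weights, which count samples far from their group less (adjusted p = 0.00993). The interaction was 0.45 (SE 0.28, adjusted p = 0.428). Of its longest coding transcript, 42.1% of 31-base stretches also occurred in other annotated transcripts, and none did in its last 500 bases. The Pgam2 transcript shared no such stretch.

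**Figure D2:**
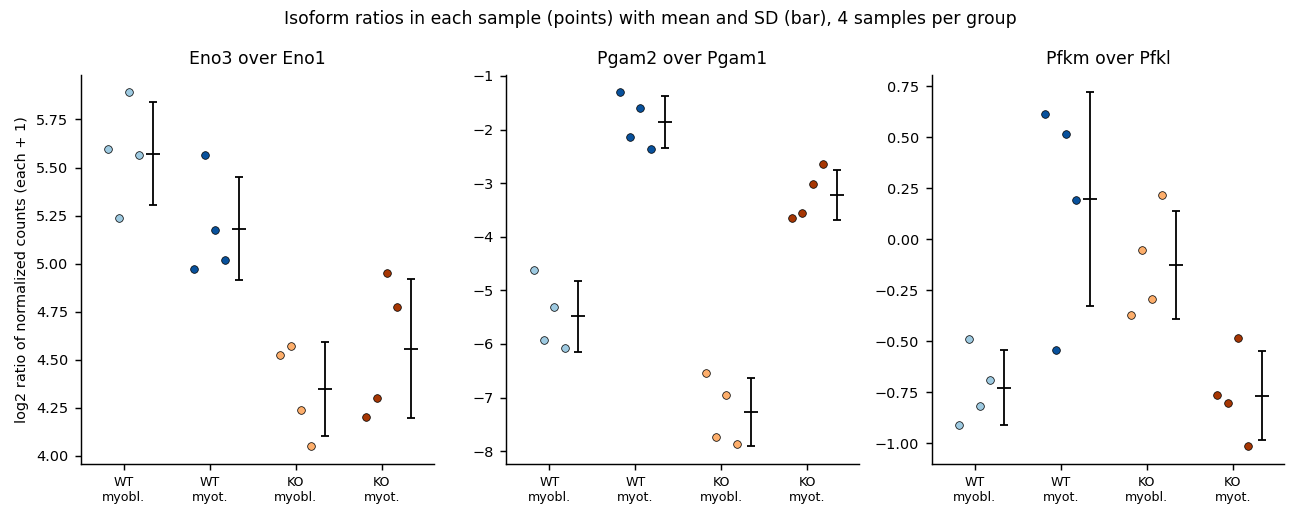
Log2 ratios of the normalized counts (each plus 1) of 3 isoform pairs in each of the 16 samples, with the group mean and SD (n = 4). The Pgam2 over Pgam1 ratio is higher in every myotube sample than in any myoblast sample. The Eno3 over Eno1 ratio is lower in every KO than in any WT sample, narrowly so between myotubes (4.949 against 4.971). Its stages overlap within each genotype.

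The ratio of Pgam2 to Pgam1 compares both forms inside each sample. Its log2 value averaged -5.48 ± 0.66 in WT myoblasts, -1.86 ± 0.49 in WT myotubes, -7.27 ± 0.63 in KO myoblasts and -3.22 ± 0.47 in KO myotubes (SD, n = 4). It rose by 3.63 on differentiation in WT cells and by 4.05 in KO cells, and differed between KO and WT by -1.79 in myoblasts and -1.36 in myotubes. None of these 4 pairs of groups overlapped, and each gave p = 0.0286 in a two-sided exact permutation test, the smallest that 4 against 4 samples allow, or 0.0429 after Benjamini-Hochberg adjustment over the 12 ratio comparisons made. The myoblast difference lost its call with a pseudocount of 5 (-0.57, adjusted p = 0.0686) or quantile normalization (-0.86, adjusted p = 0.171).

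Eno3, β-enolase, is known as the enolase of mature muscle, and in these libraries it tracked genotype and not stage. The gene lies on chromosome 11 (70657202 to 70662513, plus strand), and its promoter is printed above. WT myoblasts had 1656, 1380, 1841 and 1438 normalized counts, and WT myotubes 1493, 1749, 1712 and 1411. KO myoblasts had 1047, 633, 919 and 886, and KO myotubes 552, 880, 780 and 681. All 8 KO samples lay below all 8 WT samples, whereas the stages overlapped within each genotype. The share of all genes tested that separate the genotypes in this way was not counted. The difference between KO and WT was -0.87 (SE 0.18, adjusted p = 0.00125) in myoblasts and -1.15 (SE 0.18, adjusted p = 8.28e-05) in myotubes, or 55.2% and 45.5% of the WT means. On differentiation the log2 change was 0.02 in WT cells (SE 0.18, adjusted p = 0.967) and -0.27 in KO cells (SE 0.18, adjusted p = 0.261). Each of the muscle markers Ckm, Myh3 and Acta1 was far higher in WT myotubes than in WT myoblasts, with Ckm at 1266 ± 229 against 64.4 ± 26.5 normalized counts. The Eno3 transcript shared no 31-base stretch with another gene.

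Eno1, α-enolase, was counted at 24.0 to 52.6 normalized counts in all 16 samples. Its means were 32.1 ± 2.92 in WT myoblasts, 42.9 ± 4.98 in WT myotubes, 42.7 ± 11.7 in KO myoblasts and 30.3 ± 9.30 in KO myotubes (SD, n = 4), and no comparison passed the test. Without single libraries some did: the change in KO cells was -0.70 without KO myoblast replicate 2 (adjusted p = 0.0405) and -0.66 without KO myotube replicate 2 (adjusted p = 0.0492), and the latter omission also gave -0.71 between KO and WT myotubes (adjusted p = 0.045). With sample weights, the change in KO cells was -0.71 (adjusted p = 0.0277), the difference between myoblasts 0.52 (adjusted p = 0.0231) and the interaction -1.16 (adjusted p = 0.0181). WT myotubes lay above WT myoblasts without overlap, by 0.41 (SE 0.26, adjusted p = 0.277). Of its 31-base stretches, 77.2% occurred in other genes and 75.6% in Eno1b alone, a near-identical copy whose own row held 0 to 7 reads per sample. A read that fits several genes may be dropped or split by counting, so the Eno1 level and any ratio built on it are uncertain.

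With that limit, the log2 ratio of Eno3 to Eno1 was 5.57 ± 0.27 in WT myoblasts, 5.18 ± 0.27 in WT myotubes, 4.34 ± 0.24 in KO myoblasts and 4.56 ± 0.36 in KO myotubes (SD, n = 4). The KO differed from WT by -1.23 in myoblasts and -0.63 in myotubes, both with p = 0.0286 (exact permutation test, adjusted p = 0.0429). The myotube gap was narrow, with KO replicate 3 at 4.949 and WT replicate 1 at 4.971. The change on differentiation was -0.39 in WT cells (exact permutation p = 0.0571, adjusted p = 0.0623) and 0.21 in KO cells (exact permutation p = 0.4, adjusted p = 0.4), so no rise of the muscle over the general enolase was detected with differentiation in either genotype.

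Phosphofructokinase catalyses the committed step of glycolysis, and both of its forms rose on differentiation, in different proportions in the 2 genotypes. Pfkm (chromosome 15, 98092589 to 98132451, plus strand) had 156, 178, 170 and 178 normalized counts in WT myoblasts and 659, 438, 717 and 484 in WT myotubes. In KO myoblasts it had 218, 238, 223 and 260 and in KO myotubes 423, 302, 405 and 380. The order was WT myoblasts, KO myoblasts, KO myotubes, WT myotubes with no overlap between neighbours, although the first pair did not pass the test in the fit reported. The rise was 1.72 (SE 0.17, adjusted p = 1.78e-07) in WT cells and 0.67 (SE 0.17, adjusted p = 0.0038) in KO cells, and the interaction of -1.04 (SE 0.24, adjusted p = 0.0148) passed the test. Without KO myotube replicates 2 and 4 the interaction was -0.90 with adjusted p = 0.0503. The difference of KO from WT was 0.46 in myoblasts (adjusted p = 0.0694), which passed in 5 alternatives (adjusted p = 0.00656 to 0.0482), among them those without WT myotube replicate 2 and without KO myotube replicates 2 and 4, and -0.59 in myotubes (SE 0.17, adjusted p = 0.0145). The myotube call was lost without WT myotube replicate 3 (adjusted p = 0.0672), or without KO myotube replicates 2 and 4 together (adjusted p = 0.115). It was also lost with sample weights (adjusted p = 0.0572) or in a fit of only the 8 samples compared (adjusted p = 0.0723).

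Pfkl (chromosome 10, 77986947 to 78010083, minus strand) had 294, 251, 300 and 288 normalized counts in WT myoblasts and 429, 639, 500 and 423 in WT myotubes. KO myoblasts had 282, 247, 273 and 224 and KO myotubes 719, 528, 567 and 767. Myotubes exceeded myoblasts in every pair of samples within a genotype, and the genotypes overlapped at both stages. The rise was 0.79 (SE 0.17, adjusted p = 0.00148) in WT cells and 1.32 (SE 0.17, adjusted p = 2.97e-06) in KO cells, with an interaction of 0.52 (SE 0.23, adjusted p = 0.245).

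The log2 ratio of Pfkm to Pfkl therefore went different ways: -0.73 ± 0.18 in WT myoblasts and 0.20 ± 0.53 in WT myotubes, against -0.12 ± 0.26 in KO myoblasts and -0.77 ± 0.22 in KO myotubes (SD, n = 4). The change of -0.64 in KO cells and the higher ratio by 0.60 in KO over WT myoblasts each had p = 0.0286 (exact permutation test, adjusted p = 0.0429). The rise of 0.92 in WT cells and the difference of -0.96 between KO and WT myotubes each had an exact permutation p = 0.0571 (adjusted p = 0.0623). There WT myotube replicate 2 had a ratio of -0.54, within the range of the compared groups, while the other 3 lay between 0.20 and 0.62.

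Gapdh, the glyceraldehyde 3-phosphate dehydrogenase often used as a loading control, was the most variable member and the one with the largest fall. WT myoblasts had 231, 407, 418 and 122 normalized counts and WT myotubes 91.5, 182, 195 and 258. KO myoblasts had 297, 607, 163 and 556, and KO myotubes 59.1, 19.0, 28.8 and 9.99, or 5 to 61 reads. The first 3 groups overlapped one another, and all 4 KO myotube samples lay below every other sample. How many of all genes tested set KO myotubes apart like this was not counted. The change in KO cells was -3.84 (SE 0.48, adjusted p = 2.67e-06), that in WT cells -0.63 (SE 0.48, adjusted p = 0.365), and the interaction -3.21 (SE 0.67, adjusted p = 0.00862). The difference between KO and WT myotubes was -2.77 (SE 0.48, adjusted p = 0.000254). Without KO myotube replicates 2 and 4, which had the fewest reads, these 3 values were -3.08 (adjusted p = 9.59e-05), -2.46 for the interaction (adjusted p = 0.0365) and -2.02 between genotypes (adjusted p = 0.00698).

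The Gapdh row has a limit of its own. Of the 31-base stretches of its longest coding transcript, 84.1% also occurred in other annotated genes, and 94.9% did in its last 500 bases, with 24 other genes each holding at least 50% of them. The copy Gm10358, which holds 72.7% of them, had at most 1 read per sample. The within-group SD of Gapdh was 0.855 on the log2 scale, above that of 99.9% of the 1992 tested genes whose mean lay within 0.5 log2 units of its own, for which the median was 0.298. For the other 9 members the same percentage ran from 17.1 to 69.3. Whether the sharing of sequence accounts for the spread or for the low counts in KO myotubes was not tested. Gapdh also overlaps Iffo1 on the opposite strand, Pfkm overlaps Senp1 and Gm26513, and Pkm overlaps Gm49759, and the strand setting of the counting is not given in the sources used here.

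**Figure D3:**
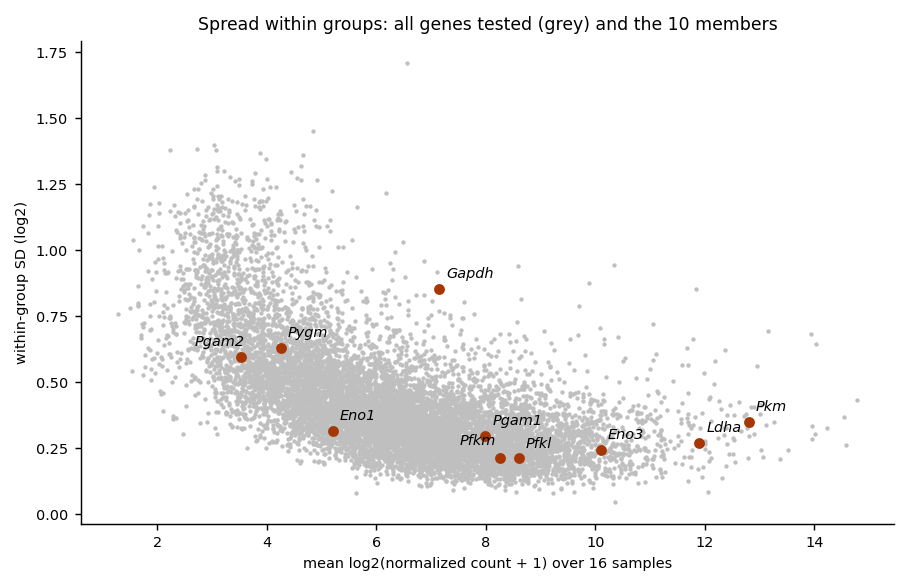
Within-group SD against mean level, both on the log2(normalized count + 1) scale over 16 samples, for all 10767 genes tested (grey) and the 10 members (labelled). Gapdh stands above nearly all genes of similar level at 0.855, and the other members lie within the cloud.

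Pkm, pyruvate kinase of muscle and many other tissues, fell on differentiation. It had 11232, 8303, 12136 and 11194 normalized counts in WT myoblasts, 3972, 9409, 6733 and 5184 in WT myotubes, 8402, 7588, 8330 and 8668 in KO myoblasts and 3591, 3644, 4984 and 6196 in KO myotubes. WT myotube replicate 2 overlapped the WT myoblasts, and the KO stages did not overlap. The change was -0.82 (SE 0.24, adjusted p = 0.0196) in WT cells and -0.88 (SE 0.24, adjusted p = 0.00869) in KO cells. The WT call was lost without any 1 of WT myoblast replicates 3 or 4 or WT myotube replicates 1 or 4 (adjusted p = 0.0522 to 0.0849). It was also lost without the filter on low values (adjusted p = 0.0508). Genotypes differed by -0.37 in myoblasts (adjusted p = 0.366) and -0.42 in myotubes (adjusted p = 0.225). The table counts the gene as a whole, so its M1 and M2 splice forms, of which M1 is the form of adult muscle, were not resolved.

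Ldha, the subunit of lactate dehydrogenase that dominates in fast muscle, differed only between the myotubes of the genotypes among the comparisons made. WT myoblasts had 4315, 3097, 4572 and 4250 normalized counts and WT myotubes 5090, 4436, 5575 and 5262. KO myoblasts had 3733, 2256, 3854 and 3571, and KO myotubes 3087, 4146, 2786 and 2690. All KO myotubes lay below all WT myotubes, with a difference of -0.70 (SE 0.20, adjusted p = 0.0161), and without WT myotube replicate 3 the adjusted p was 0.0505. The change on differentiation was 0.34 in WT cells (SE 0.20, adjusted p = 0.242) and -0.07 in KO cells (SE 0.20, adjusted p = 0.824). Parts of both genes occur elsewhere in the annotation, 50.9% of the 31-base stretches of Pkm and 34.2% of those of Ldha, but none in the last 500 bases of either.

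Counted together, 5 of the 10 members passed the test on differentiation of WT cells, with 4 higher (Pygm, Pgam2, Pfkm, Pfkl) and 1 lower (Pkm), where 23.0% of all genes tested did and 13.8% were higher. In KO cells 6 of 10 passed, the same 4 higher and Gapdh and Pkm lower, beside 33.4% of all genes, of which those higher made up 17.3% of the genes tested. Between genotypes, 3 of 10 passed in myoblasts (Pygm, Pgam2, Eno3), beside 15.8% of all genes, and 6 of 10 in myotubes (Pygm, Pgam2, Pfkm, Eno3, Gapdh, Ldha), beside 23.4%. Every member called between genotypes was lower in the KO, where 8.50% of all genes in myoblasts and 13.7% in myotubes were called lower. Leaving out WT myotube replicate 3 reduced the myotube count from 6 to 3, as Pfkm, Pgam2 and Ldha fell short. In the interaction 2 members passed (Pfkm, Gapdh), beside 3.45% of all genes, and 1 did without KO myotube replicates 2 and 4. The median log2 fold change of the members was 0.37 in WT and 0.15 in KO differentiation, and -0.33 and -0.64 between genotypes in myoblasts and myotubes, where the medians of all genes were -0.0078, -0.025, -0.013 and -0.066. Eno1 and Pgam1 passed in none of the 5 comparisons in the fit with equal sample weights. The 2 KO comparisons share no samples with each other, but each shares a group with a differentiation comparison.

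**Figure D4:**
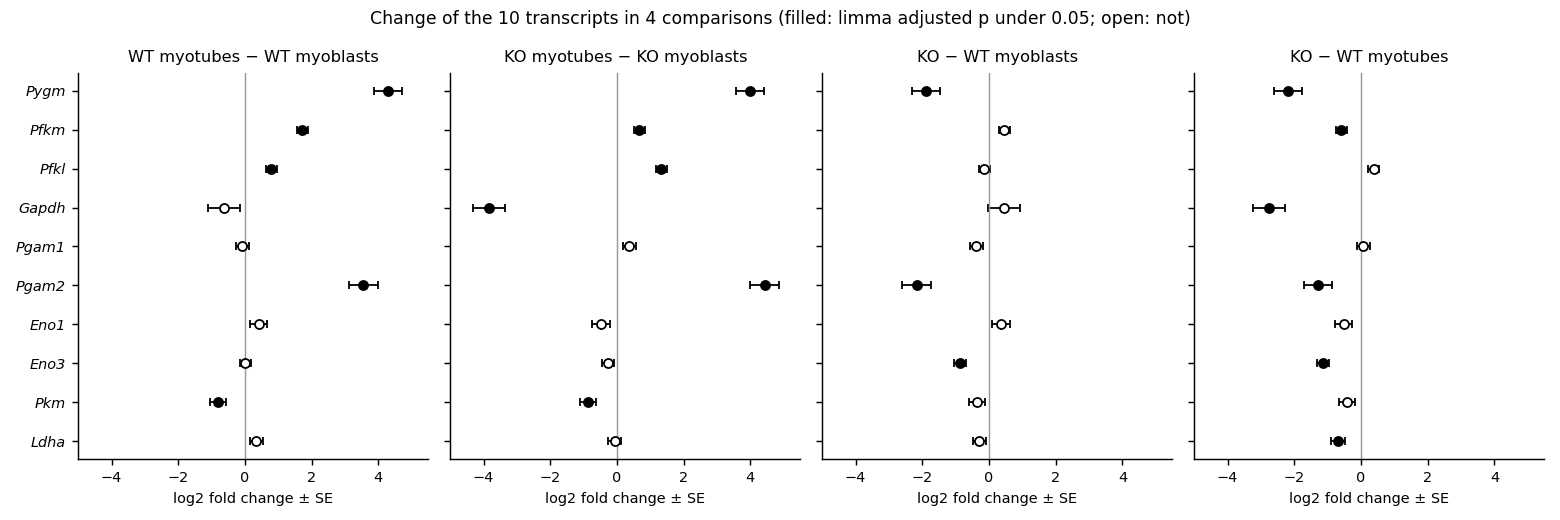
Log2 fold change with its SE for the 10 members in 4 comparisons, as filled circles where the limma adjusted p is under 0.05 and open circles otherwise. Pygm and Pgam2 lie at 3.55 to 4.43 in both differentiation comparisons and between -1.29 and -2.19 in both KO comparisons.

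The other genes of the pathway were taken from lists fixed by name. Of all 10767 genes tested, 23.0% were called in WT differentiation (1488 higher, 986 lower) and 33.4% in KO differentiation (1860 higher, 1731 lower). Between genotypes 15.8% were called in myoblasts (782 higher, 915 lower) and 23.4% in myotubes (1049 higher, 1472 lower), and 3.45% in the interaction. Several list counts here and below lie near these shares and are not read as a response of the list. Of 30 genes of glycolysis and glucose entry besides the members, 18 were tested. On differentiation 4 rose and 2 fell in WT cells (median 0.34), and 3 rose and 2 fell in KO cells (median -0.10). The KO count of 5 was 8 without KO myotube replicate 4 or with scaling to equal totals. Slc16a3, the lactate exporter MCT4, rose by 2.52 (SE 0.49, adjusted p = 0.000866) in WT cells, from 16.5 ± 5.07 to 102 ± 44.6 normalized counts, and by 2.40 (SE 0.49, adjusted p = 0.000778) in KO cells. Hk2, the hexokinase of muscle, rose by 1.40 and 1.44 (adjusted p = 0.000544 and 0.00021). Ldhb, the heart-type lactate dehydrogenase subunit, fell in WT cells by 0.94 (SE 0.28, adjusted p = 0.021), and in KO cells Aldoc fell by 1.43 (SE 0.45, adjusted p = 0.0196) and Pfkfb4, a bifunctional enzyme that regulates phosphofructokinase, fell by 1.19 (SE 0.26, adjusted p = 0.00125). Aldoc had 3 to 5 reads per KO myoblast library and 0 to 2 per KO myotube library, so its fall rests on few reads. Between genotypes, none rose in the KO and 3 were lower in myoblasts (median 0.14) and 4 in myotubes (median -0.40), or 2 without WT myotube replicate 3. Slc16a3 differed between KO and WT by -2.64 (SE 0.49, adjusted p = 0.000487) in myoblasts and -2.77 (SE 0.49, adjusted p = 0.000338) in myotubes. KO myoblasts had 0 to 4 Slc16a3 reads per library, so the myoblast difference and the rise in KO cells depend on the pseudocount. Aldoc, the brain aldolase, was lower in KO, at -2.64 (SE 0.45, adjusted p = 0.000213) in myoblasts. In KO myotubes it had 3 reads in all against 92 in WT myotubes, a rate ratio of 23.4 with an exact 95% interval of 7.78 to 116. Eno2, the neuronal enolase, differed by -1.70 and -0.89 at the 2 stages (adjusted p = 5.68e-05 and 0.0166). Pgk1, phosphoglycerate kinase, failed the filter with 1 to 37 reads per sample. Of its 31-base stretches, 68.3% occurred in other genes, and 11.1% did in its last 500 bases. Whether this sharing bears on its count was not tested.

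**Figure D5:**
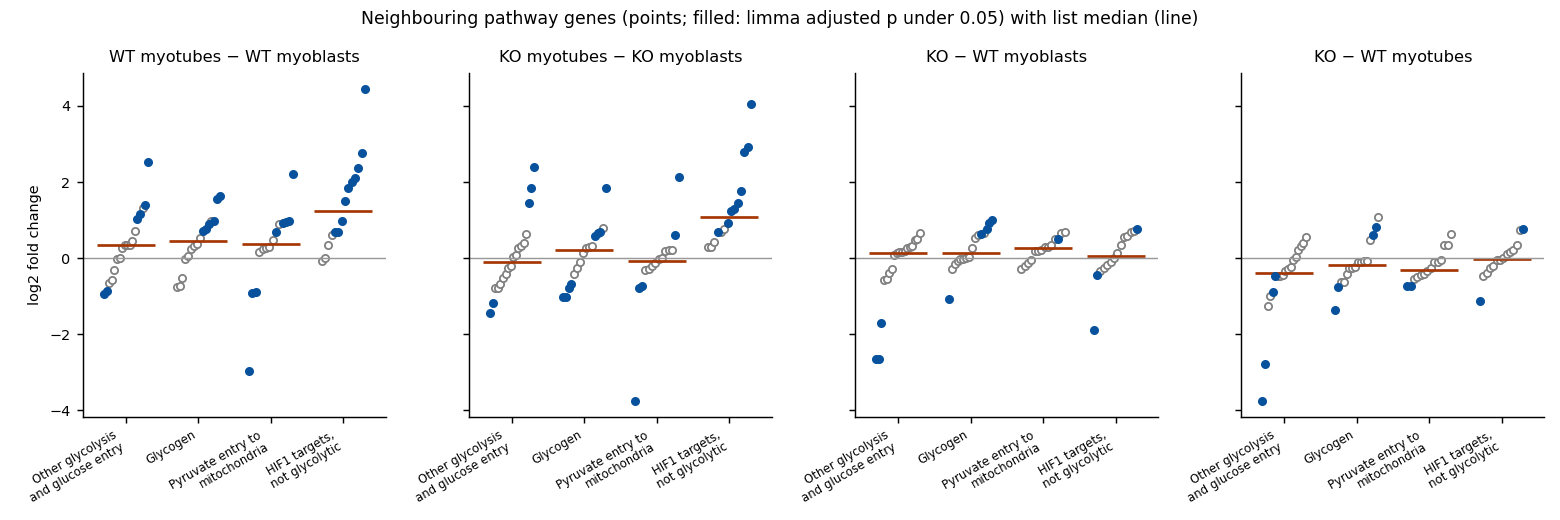
Log2 fold change of every tested gene in 4 lists of neighbouring pathways, with filled points for a limma adjusted p under 0.05 and a line at the list median. The HIF1 target list has its median at 1.24 in WT and 1.08 in KO differentiation, and near 0 between genotypes.

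Of 23 listed glycogen genes other than Pygm, 16 were tested, of which 6 rose and none fell on WT differentiation (median 0.45), while 4 rose and 4 fell in KO cells (median 0.21). Gaa, the lysosomal glycogen-degrading glucosidase, rose by 1.63 and 1.85 in WT and KO cells (adjusted p = 0.000633 and 9.27e-05). Ugp2, which makes UDP-glucose, was higher by 1.00 in KO than WT myoblasts (SE 0.18, adjusted p = 0.000444). The glycogen-binding protein Stbd1 and the brain phosphorylase Pygb were also higher in KO myoblasts, by 0.92 (SE 0.27, adjusted p = 0.0212) and 0.77 (SE 0.21, adjusted p = 0.0138). Pygb remained higher in KO myotubes by 0.61 (SE 0.21, adjusted p = 0.0389), where Pygm was lower. Phkb, a phosphorylase kinase subunit, was higher there by 0.81 (SE 0.21, adjusted p = 0.00666), and Phkg2, the catalytic subunit of the liver type, lower, at -1.36 (SE 0.28, adjusted p = 0.00123). In all, 4 genes of the list were higher and 1 lower in KO myoblasts (median 0.14) and 2 were higher and 2 lower in KO myotubes (median -0.17). The interaction passed for Ugp2 (-1.26, SE 0.26, adjusted p = 0.00773) and Stbd1 (-1.66, SE 0.38, adjusted p = 0.0149). Without KO myotube replicates 2 and 4 the interaction passed for 1 gene of the list, and 8 in place of 5 passed between the myoblasts of the genotypes. That count was 3 without WT myoblast replicate 3 or 4 or KO myoblast replicate 2, and the count between myotubes was 2 in place of 4 without WT myotube replicate 1, 3 or 4 or KO myotube replicate 2.

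Among 14 genes that carry pyruvate into mitochondria, all tested, 5 rose and 3 fell in WT differentiation (median 0.37), and 2 rose and 3 fell in KO cells (median -0.08). Pdk1, a kinase that inactivates pyruvate dehydrogenase, rose by 2.20 and 2.12 (adjusted p = 8.98e-07 and 7.03e-07), while Pdk4, a kinase of the same family, fell by 2.98 (SE 0.67, adjusted p = 0.0031) in WT cells and fell by 3.76 in KO cells (SE 0.67, adjusted p = 0.000204). Pdk4 was near the floor in myotubes, with 0 to 6 reads per WT library and 0 to 11 per KO library. The size of its fall therefore depends on the pseudocount. Pdk3 fell in WT cells by 0.93 (SE 0.28, adjusted p = 0.0224) and passed in KO cells too. In 14 HIF1 target genes that are not glycolytic, 10 rose in WT and 9 in KO differentiation, and none fell (medians 1.24 and 1.08). Car9, a carbonic anhydrase, had no read in any myoblast library and 22.5 ± 11.0 normalized counts in WT myotubes, at least 7.5-fold higher against a floor of 3 reads per library, and in KO myotubes 24.6 ± 22.5, from 1 to 57 reads per library. Adm, adrenomedullin, rose by 2.77 and 2.78 (adjusted p = 0.000735 and 0.000381). It had 0 to 5 reads per WT myoblast library and 1 to 4 per KO myoblast library, so the size of its rise depends on the pseudocount. P4ha1, a collagen prolyl hydroxylase, rose by 2.92 (SE 0.29, adjusted p = 9.89e-08) in KO cells, from 23.2 ± 6.62 to 182 ± 47.7. Between genotypes 1 gene of this list was higher and 2 lower in KO myoblasts (median 0.06), and 1 was higher and 1 lower in KO myotubes (median -0.03). Egln3, a prolyl hydroxylase that marks HIF for degradation, was lower in KO myoblasts, at -1.89 (SE 0.23, adjusted p = 2.75e-06), and Ndrg1 was higher in KO myotubes by 0.76 (SE 0.16, adjusted p = 0.00169). In the pyruvate list 1 gene was higher in KO myoblasts and 2 were lower in KO myotubes (medians 0.26 and -0.31). Leaving out single samples moved the counts of the pyruvate list to 2 to 5 in KO differentiation (2 without KO myotube replicate 2, and 3 without KO myotube replicate 1 or KO myoblast replicate 2 or 4), to 0 or 1 between myoblasts and to 0 to 4 between myotubes, so its genotype calls rest on single samples.

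The 5 genes whose log2 values over the 16 samples were most like those of Pgam2 by Pearson's r were Cacnb1 (0.982), Srpk3 (0.979), Srl (0.974), Myl4 (0.974) and Itgb1bp2 (0.974). Each was highest in WT myotubes and lowest in KO myoblasts, as Cacnb1 shows with means of 39.7, 278, 9.37 and 122 normalized counts in WT myoblasts, WT myotubes, KO myoblasts and KO myotubes. For Eno3 they were Apol9b (0.959), Emc9 (0.928), Sec14l2 (0.926), Khdrbs3 (0.924) and Akap13 (0.924). Apol9b averaged 403 and 308 normalized counts in WT myoblasts and myotubes against 74.9 and 41.0 in the KO groups, and Akap13 290 and 306 against 207 and 190. The 2 sets of 5 had no gene in common. These values describe likeness over 16 samples that fall into 4 groups, so differences between the groups set most of it.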

How the data were processed

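RNA from 16 C2C12 samples was prepared with a digital mRNA-seq kit and sequenced single-end. Per the labels, the authors used bcl2fastq, STAR 2.6.0a and HTSeq on mm10. They deposited log2(normalized count + 1) per gene; the normalization tool is not given in the sources used here. Read totals were recovered because each linear value was a whole multiple of the smallest step of its sample (tolerance 0.01), and were used for depth and counting intervals only.

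Genes reaching 10 normalized counts in 4 or more samples were fitted over all 4 groups with limma 3.58.1 (R 4.3.3; mean-variance trend), with Benjamini-Hochberg adjusted p under 0.05. Isoform ratios were compared by two-sided exact permutation tests (Python 3.11.15). The fit was tested on simulated data. The named genes are all members, up to 3 called list genes per direction with the largest change in each comparison, others where they bear on a member, and the 5 genes most like Pgam2 and Eno3; Gaa, Hk2, Eno2, Pdk1 and Pgk1 were named after their values were seen. The members and lists were chosen with earlier results of these data known. Same-numbered samples of different groups did not deviate together (mean correlation 0.033, range -0.223 to 0.369), so no replicate block was used. Shared stretches and positions are from GENCODE M21.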

Additional observations from a re-analysis of the deposited data

Results flagged for a closer look

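Of 52 groups of 4 samples examined for a single distant value (10 members and 3 ratios in 4 groups), 1 stood out, and chance alone marks about 1 group in 20. Ldha in KO myoblast replicate 2 had a log2 value of 11.14, where the other 3 KO myoblast samples lay between 11.80 and 11.91. The change on differentiation differed between genotypes for 2 members by the limma interaction test. For Pfkm it was -1.04 (adjusted p = 0.0148), with a rise of 1.72 in WT and 0.67 in KO cells. For Gapdh it was -3.21 (adjusted p = 0.00862), with changes of -0.63 and -3.84, and its transcript shares 84.1% of its 31-base stretches with other genes. Whether that sharing bears on the difference was not tested.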

How the results depend on the processing

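Counts of members called were within 1.5 times the reported ones under all alternatives but these. Sample weights gave 7 in place of 3 between genotypes in myoblasts, where the count over all 10767 genes rose from 1697 to 3773. An adjusted p under 0.01 left 3 of 6 in myotubes and 1 of 2 in the interaction, and the interaction also kept 1 without KO myotube replicates 2 and 4 together, an alternative chosen after seeing the data. Leaving out 1 sample at a time gave 3 to 7 in myotubes. With the replicate block the counts were 5, 6, 3, 6 and 2, as without it, and the same-number correlation does not pair the samples. Sample weights also raised list counts, for glycogen genes from 6 to 12 in WT differentiation and for pyruvate genes from 1 to 6 between myoblasts. Over all genes tested, the weights raised the WT differentiation count from 2474 to 4683. These rises are not read as a response of the members or lists. The causes were not tested.

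Directions reversed only for values that were not called. Leaving out single samples gave -0.72 to 0.16 for the Pygm interaction, -0.286 to 0.063 for Pgam1 in WT differentiation, -0.067 to 0.155 for Pgam1 between myotubes, -0.047 to 0.092 for Eno3 in WT differentiation, -0.26 to 0.16 for the Pkm interaction and -0.248 to 0.009 for Ldha in KO differentiation. Sample weights gave -0.009 for Pgam1 between myotubes, -0.096 for Eno3 in WT differentiation and 0.061 for the Pkm interaction. The Pgam2 interaction, 0.88 as reported, was -0.028 with quantile normalization and -0.23 with a pseudocount of 5. The Pgam2 over Pgam1 ratio between KO and WT myoblasts no longer passed with a pseudocount of 5 (-0.57) or quantile normalization (-0.86). Quantile normalization moved WT differentiation over all genes from 1488 higher and 986 lower to 1418 and 1434.

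Depth limits Pgam2 and Pygm in KO myoblasts, at 2 and 9 reads. Leave-one-out of a ratio, 4 against 3 samples, is given as a value only and was not judged by its p. Spread and muscle marker level differ between KO myotubes and the other groups, and depth is lower in KO myotube replicates 2 and 4 only. The part of spread, depth and marker level in the results was not tested.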
